A study of Homo sapiens with 6 samples.

Results

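The genes described here are the FOXO transcription factors and the receptor, adaptor and PI3K genes that lie in a feedback loop with them: FOXO1, FOXO3, FOXO4, IRS1, IRS2, INSR, IGF1R, PIK3R1 and PIK3CA. They were chosen by gene symbol, and all 9 were found among the 17448 genes of the expression table. RNA-seq of polyA-selected RNA was performed on HCC2814 cells, a human lung squamous cell carcinoma (LUSC) line. WT cells (sgCtrl, 3 samples) received a non-targeting guide and MLST8-KO cells (3 samples) a guide against MLST8, with 48 to 72 h of exposure before antibiotic selection as the labels state it, in DMEM with 10% serum. The study's methods give that interval for the collection of virus instead. The study delivered guides with a lentiviral Cas9 vector, shows this line with several MLST8 and several control guides, and describes no cloning of it in the text used here. Which guide a sample carried, and whether unedited cells remained, is not given. In bulk RNA, fewer cells with a transcript and less transcript per cell cannot be told apart. The labels do not say whether the 3 samples of a group came from separate cultures or guides. The p-values therefore measure the spread between these samples, which may be partly technical.

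As background, insulin and IGF receptors phosphorylate the adaptors IRS1 and IRS2, which recruit PI3K, a dimer of a regulatory subunit such as p85α (PIK3R1) and a catalytic subunit such as p110α (PIK3CA). PI3K makes the lipid that brings AKT to the membrane, and mTORC2 phosphorylates AKT. Active AKT phosphorylates FOXO factors and keeps them out of the nucleus, and nuclear FOXO is known to raise the transcription of receptor and adaptor genes, which closes the loop. MLST8 encodes a subunit shared by mTORC1 and mTORC2. In protein blots of LUSC lines, this one included, the study reports that its loss broke mTOR's binding to RICTOR (mTORC2) and spared RAPTOR (mTORC1). Phosphorylation of AKT at its mTORC2 site fell there, and that of an mTORC1 substrate did not change. Expression data measure the transcripts of these genes only. They carry no information on phosphorylation or on where FOXO proteins sit in the cell.

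The guide's target was checked in every sample first. In WT replicates 1, 2 and 3, MLST8 counts were 874, 827 and 842, and in the MLST8-KO samples, numbered likewise, they were 396, 629 and 401. All MLST8-KO samples were below all WT samples, MLST8-KO replicate 2 by the least, and the log2 fold change was -0.96 (SE 0.15, adjusted p = 0.00339, edgeR). Counts per sample summed to between 14381673 and 15744154, and the limit for a gene with no count is 3 counts, for counting error only. Levels are given in CPM, counts scaled to the TMM-adjusted library size, unless said otherwise. Squamous markers were abundant in all 6 samples, with a summed level of 14120 to 21454 CPM in WT and 24593 to 27554 CPM in MLST8-KO samples, and 8 of the 9 were called higher in MLST8-KO. The 4 general epithelial markers summed to 963 to 1081 CPM in WT and 812 to 865 CPM in MLST8-KO samples, with 0 called higher and 2 lower. KRT18 went from 212–362 to 146–164 CPM and KRT8 from 253–285 to 165–227 CPM, while EPCAM and CDH1 overlapped. The 5 immune markers summed to 53.5 to 78.3 CPM in WT and 40.6 to 55.2 CPM in MLST8-KO samples, with 1 called lower. CD68 (625 to 1079 counts) was most of the sum, while PTPRC, a marker of white blood cells, had 0 or 1 count. Fibroblast markers summed to 31.5 to 33.9 CPM in WT and 33.6 to 37.1 CPM in MLST8-KO samples, mostly COL1A1 (435 to 548 counts), with PDGFRB at 0 to 2 counts. Endothelial markers summed to 2.99 to 3.58 CPM in WT and 1.92 to 2.97 CPM in MLST8-KO samples, with 1 called lower, VWF at 20 to 35 counts and KDR at 0 to 3. Their part in the results was not tested. MLST8-KO replicate 1 stood apart in liver transcripts, with 251.8 CPM summed over 10 hepatocyte markers against 0.938 to 6.83 CPM in the other samples, so the calls of the members are also given without it. WT replicate 1 was the WT library nearest to the MLST8-KO mean for 76% of the 4146 genes called, and for all 4 members called.

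Of the 9 members, PIK3R1, FOXO1 and IGF1R rose in MLST8-KO cells and IRS2 fell, while the other 5 did not pass the test. A gene was called where edgeR's quasi-likelihood test gave a Benjamini-Hochberg adjusted p-value under 0.05 over the 12951 genes tested. All 9 members passed the filter on low counts. Among all genes tested, 16.3% were called higher and 15.7% lower, 32% in all, so 4 calls among 9 genes is near the background and is no result about the members as a group. The median log2 fold change of the members was 0.06, and that of all genes tested was 0.00. The MLST8-KO samples lay above all WT samples in CPM for 3 members and below them for 2, IRS1 and IRS2, both only after TMM scaling. Among all genes tested, 24.8% lay above and 24.2% below, 49.1% together. Of all calls, 51% were higher under TMM scaling. This share was 62% with upper quartile scaling, which moved the median of all genes by 0.06, and 71% in limma on log2(TPM + 1) and 70.9% on log2(TPM + 0.1), which moved it by 0.09 and 0.10. TPM is a level scaled by gene length and depth. Relative to the median of all genes, the log2 fold changes of the called members under these 3 settings were 0.70 to 0.79 for PIK3R1, 0.54 to 0.70 for FOXO1, 0.39 to 0.42 for IGF1R and -0.42 to -0.35 for IRS2. The calls of PIK3R1, FOXO1 and IGF1R held under all 3 settings, whereas that of IRS2 was lost under all 3. Without MLST8-KO replicate 1, MLST8-KO replicate 2 or WT replicate 2, 1 member, PIK3R1, was called higher and 0 lower.

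**Figure D1:**
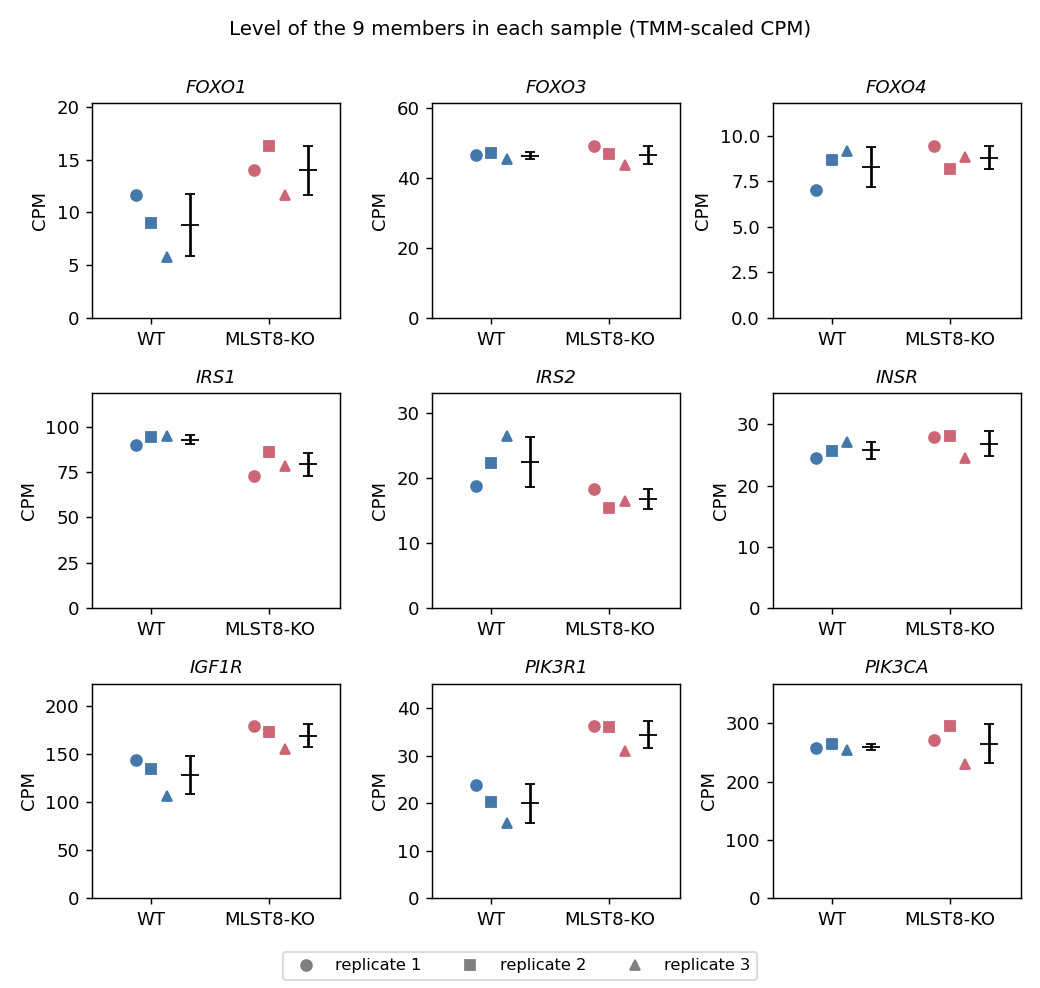
CPM of each of the 9 genes in each sample, with a panel for each gene and every axis starting at 0. Blue symbols are the 3 WT samples, red symbols the 3 MLST8-KO samples, the symbol's shape gives the replicate number, and the black mark beside each group is the mean with its SD. PIK3R1 and IGF1R show a gap between the groups, FOXO1 and IRS2 nearly touch, and FOXO3, FOXO4, INSR and PIK3CA overlap.

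**Figure D2:**
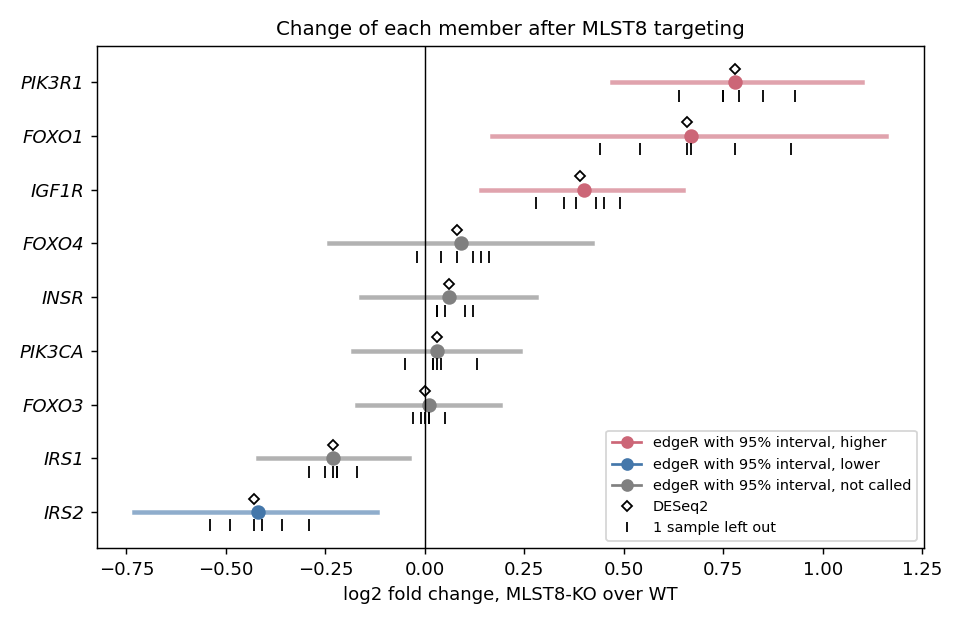
Log2 fold change of MLST8-KO over WT for each gene, with its 95% interval from edgeR as a bar, colored by its call. Open diamonds are DESeq2's estimates and ticks are the fits with 1 sample left out; the ticks of PIK3R1 lie between 0.64 and 0.93, and those of FOXO3, FOXO4 and PIK3CA fall on both sides of 0.

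The sequence before the start of each called member is shown because FOXO factors bind DNA directly, and a FOXO motif close to a start can be looked for by its letters. RefSeq (GRCh38.p14) lists 15 promoters for the 9 genes, and the 250 bases before each start were searched for GTAAACA on either strand, read as TGTTTAC on the other. The 4 called members are written below in the direction of transcription, all in lower case because none of them holds this exact sequence. PIK3R1 has 4 listed starts, and its first is shown without the bases that overlap an annotated exon.
FOXO1, chr13:40666642-40666891, minus strand: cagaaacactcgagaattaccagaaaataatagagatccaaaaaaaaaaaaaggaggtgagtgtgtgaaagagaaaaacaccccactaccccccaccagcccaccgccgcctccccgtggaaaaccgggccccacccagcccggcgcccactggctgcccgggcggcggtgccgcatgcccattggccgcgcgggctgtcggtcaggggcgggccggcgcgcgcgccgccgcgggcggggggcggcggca
IGF1R, chr15:98648289-98648538, plus strand: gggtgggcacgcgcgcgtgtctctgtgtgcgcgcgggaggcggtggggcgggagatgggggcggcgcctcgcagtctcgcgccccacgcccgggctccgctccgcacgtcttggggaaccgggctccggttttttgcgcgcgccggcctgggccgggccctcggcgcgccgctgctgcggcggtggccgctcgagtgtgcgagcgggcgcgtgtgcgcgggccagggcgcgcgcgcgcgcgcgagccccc
PIK3R1, chr5:68215506-68215719, plus strand: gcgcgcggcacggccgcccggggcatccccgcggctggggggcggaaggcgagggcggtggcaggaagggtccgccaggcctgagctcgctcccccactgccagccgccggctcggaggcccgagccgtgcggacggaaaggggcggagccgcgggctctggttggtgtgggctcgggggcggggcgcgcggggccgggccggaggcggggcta
IRS2, chr13:109786584-109786833, minus strand: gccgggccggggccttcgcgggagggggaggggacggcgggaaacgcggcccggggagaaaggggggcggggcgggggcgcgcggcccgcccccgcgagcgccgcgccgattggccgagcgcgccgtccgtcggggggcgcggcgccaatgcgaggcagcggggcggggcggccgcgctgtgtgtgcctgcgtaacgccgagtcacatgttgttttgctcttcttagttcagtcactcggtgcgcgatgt

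These stretches were rich in G and C, at 67.2% for FOXO1, 81.2% for IGF1R, 81.8% for PIK3R1 and 76.4% for IRS2. The motif was found in 1 of the 15 member promoters, that of PIK3CA, 149 bases before the start. In GENCODE, an exon begins 7 bases into that window, and the motif lies inside this first exon of a PIK3CA transcript. It is in capitals in the stretch below.
PIK3CA, chr3:179148198-179148224, plus strand: gttcgttgttTGTTTACacgatgtgag

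PIK3CA did not pass the test between the groups, and the 4 called members lack the motif in their windows. By comparison, 2.98% of 35116 RefSeq promoters held the motif in this window, as did 3 of 39 promoters of the FOXO target list described further on. Only this exact sequence was searched for, and other sequences that FOXO factors may bind were not. A match is a description of the letters and not a site. Its absence says nothing of FOXO binding, in these windows or elsewhere.

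INSR, the insulin receptor, and IGF1R, the receptor for IGF-1 and IGF-2, are the receptors of the loop. INSR (chr19:7112255-7294034, GRCh38, minus strand) was measured at 24.5, 25.6 and 27.1 CPM in WT and 28, 28 and 24.6 CPM in MLST8-KO replicates 1, 2 and 3. The groups overlapped. The log2 fold change was 0.06 (95% interval -0.16 to 0.28, adjusted p = 0.647, edgeR), an interval that runs from a fall of 10.3% to a rise of 21.6%. IGF1R (chr15:98648539-98964530, plus strand) was measured at 144.3, 134.9 and 106.4 CPM in WT and 178.8, 173.3 and 155.4 CPM in MLST8-KO replicates 1, 2 and 3. Every MLST8-KO sample was above every WT sample, and WT replicate 3 was the lowest. IGF1R rose 1.32-fold, a log2 fold change of 0.40 (SE 0.11, 95% interval 0.14 to 0.65, adjusted p = 0.0245, edgeR), and DESeq2 also called it (adjusted p = 0.00628). The edgeR call was lost without MLST8-KO replicate 1 (0.35, adjusted p = 0.0941), MLST8-KO replicate 2 (0.38, adjusted p = 0.0818) or WT replicate 2 (0.43, adjusted p = 0.0637).

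The balance between the receptors was compared as a ratio of TPM. IGF1R was 4.6, 4.21 and 3.1 times INSR in WT and 5.02, 5.09 and 4.95 times INSR in MLST8-KO replicates 1, 2 and 3. The ratio was higher in every MLST8-KO sample, by 0.36 on the log2(TPM + 0.1) scale. A two-sided exact permutation test over the 20 arrangements gave p = 0.1, the smallest it can give with 3 samples per group. IGF1R made up 79.5% ± 3.44 of the summed receptor TPM in WT and 83.4% ± 0.189 in MLST8-KO cells (SD, n = 3). IGF2R, a receptor that clears IGF-2 and has no kinase domain, rose by 0.64 on the log2 scale (SE 0.11, adjusted p = 0.00401, edgeR), from 162–200 to 248–316 CPM, and kept its call without any 1 sample.

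The adaptors IRS1 and IRS2 pass the receptor signal to PI3K and are also the point at which other kinases restrain it. IRS1 (chr2:226731317-226799759, minus strand) was measured at 89.8, 94.0 and 94.6 CPM in WT and 73.0, 86.0 and 78.3 CPM in MLST8-KO replicates 1, 2 and 3. The MLST8-KO samples all lay below the WT samples in TMM-scaled CPM. They overlapped in TPM and in CPM from the unadjusted library totals, where WT replicate 1 was at 88.32 and MLST8-KO replicate 2 at 88.41. The log2 fold change of -0.23 (95% interval -0.42 to -0.04) missed the threshold with edgeR (adjusted p = 0.0592) and DESeq2 (adjusted p = 0.0708). Without WT replicate 1 it passed (-0.25, adjusted p = 0.0458). IRS2 (chr13:109752698-109786568, minus strand) was measured at 18.7, 22.4 and 26.4 CPM in WT and 18.4, 15.4 and 16.5 CPM in MLST8-KO replicates 1, 2 and 3. WT replicate 1 and MLST8-KO replicate 1 nearly touched. The groups overlapped in TPM and in CPM from the unadjusted totals, where these samples were at 18.41 and 18.9. IRS2 fell 1.34-fold, a log2 fold change of -0.42 (SE 0.14, 95% interval -0.73 to -0.12, adjusted p = 0.0394, edgeR). This call was kept without WT replicate 1 (-0.54, adjusted p = 0.00545) and lost without any of the other 5 samples, at -0.49 without MLST8-KO replicate 1, -0.36 without MLST8-KO replicate 2, -0.41 without MLST8-KO replicate 3, -0.43 without WT replicate 2 and -0.29 without WT replicate 3 (adjusted p = 0.0678 to 0.131, edgeR). It was also lost with upper quartile scaling (-0.36, adjusted p = 0.0621) and in limma on log2(TPM + 1) (-0.25, adjusted p = 0.171).

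Per length, IRS2 stayed below IRS1 in every sample, at a ratio of 0.261, 0.299 and 0.35 in the WT samples in turn and 0.315, 0.225 and 0.265 in the MLST8-KO samples. These ratios overlapped between the groups and did not differ beyond their spread (-0.17 on the log2 scale, two-sided exact permutation p = 0.5). IRS4, a further adaptor of the family, had 0 to 4 counts per sample and did not pass the filter.

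PIK3R1 and PIK3CA encode the regulatory and catalytic subunits that form PI3K. PIK3R1 (chr5:68215720-68301821, plus strand) was measured at 23.8, 20.3 and 15.7 CPM in WT and 36.1, 36 and 31.1 CPM in MLST8-KO replicates 1, 2 and 3. The groups were well apart, with the lowest MLST8-KO sample at 31.05 CPM and the highest WT sample at 23.75 CPM. PIK3R1 rose 1.72-fold, a log2 fold change of 0.78 (SE 0.14, 95% interval 0.47 to 1.10, adjusted p = 0.00496, edgeR), the largest change among the 9 genes. DESeq2 also called it (0.78, adjusted p = 1.07e-05), and edgeR called it without each of the 6 samples, at 0.64 to 0.93. PIK3CA (chr3:179148114-179240093, plus strand) was measured at 257.8, 264.6 and 255 CPM in WT and 271.4, 294.6 and 229.9 CPM in MLST8-KO replicates 1, 2 and 3. The MLST8-KO samples lay on both sides of the WT samples, and the log2 fold change was 0.03 (95% interval -0.18 to 0.24, adjusted p = 0.803, edgeR). PIK3CA overlaps KCNMB3 on the other strand, which had at most 130 counts in a sample, and reads of the pair cannot be told apart without strand. Its counts were not whole numbers in 5 of 6 samples, and those of FOXO3 in 1. FOXO1, FOXO3, IRS2 and IGF1R also overlap noncoding genes or pseudogenes that are not among the listed genes. The part of these in the counts was not tested.

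The ratio of PIK3R1 to PIK3CA in TPM was 0.0929, 0.0693 and 0.054 in WT and 0.127, 0.113 and 0.14 in MLST8-KO replicates 1, 2 and 3. It was higher in every MLST8-KO sample, by 0.83 on the log2(TPM + 0.1) scale, with a two-sided exact permutation p of 0.1, the smallest possible. The other class I subunits extend this comparison. The regulatory subunit genes PIK3R2 and PIK3R3 rose by 0.60 (SE 0.12, adjusted p = 0.00584) and 0.69 (SE 0.19, adjusted p = 0.0227) on the log2 scale with edgeR. PIK3R2 kept its call without any 1 sample, while PIK3R3 lost it without any 1 of the MLST8-KO samples or without WT replicate 2 (0.60 to 0.75, adjusted p = 0.0517 to 0.0885). Among catalytic subunit genes, PIK3CD fell by 0.48 on the log2 scale (SE 0.13, adjusted p = 0.0227, edgeR), a call kept only without WT replicate 1 and otherwise at -0.52 to -0.41 (adjusted p = 0.0569 to 0.0892). PIK3CB was at -0.12 (adjusted p = 0.281, edgeR).

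Summed over PIK3R1, PIK3R2 and PIK3R3, regulatory subunit transcripts stood at 48.0, 37.5 and 32.0 TPM in WT and 65.1, 68.2 and 63.8 TPM in MLST8-KO replicates 1, 2 and 3. No MLST8-KO sample was as low as any WT sample. PIK3R2 held most of that sum and PIK3R1 13.9% ± 0.712 of it in WT and 15.4% ± 0.806 in MLST8-KO cells (SD, n = 3). The summed catalytic transcripts PIK3CA, PIK3CB and PIK3CD were at 98.2 ± 1.41 TPM in WT and 101.2 ± 14.2 TPM in MLST8-KO cells and overlapped. Catalytic over regulatory TPM was thus 2.58 ± 0.545 in WT and 1.54 ± 0.172 in MLST8-KO cells (SD, n = 3), with each MLST8-KO sample below each WT sample. These sums and their ratio were not among the planned comparisons and restate the subunit values above. Among all genes tested, 49.1% also had no overlap of the groups in CPM.

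FOXO1, FOXO3 and FOXO4 are the AKT-regulated transcription factors of the loop. FOXO1 (chr13:40469953-40666597, minus strand) was measured at 11.61, 8.95 and 5.77 CPM in WT and 14, 16.25 and 11.65 CPM in MLST8-KO replicates 1, 2 and 3. WT replicate 1 nearly touched MLST8-KO replicate 3, and WT replicate 3 was the lowest sample. FOXO1 rose 1.59-fold, a log2 fold change of 0.67 (SE 0.22, 95% interval 0.17 to 1.16, adjusted p = 0.0441, edgeR), and DESeq2 also called it (adjusted p = 0.0133). Its edgeR call was kept without WT replicate 1 (0.92, adjusted p = 0.00356). It was lost without any other sample, at 0.66 without MLST8-KO replicate 1, 0.54 without MLST8-KO replicate 2, 0.78 without MLST8-KO replicate 3, 0.67 without WT replicate 2 and 0.44 without WT replicate 3 (adjusted p = 0.0571 to 0.158). The direction was the same in all of these fits.

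FOXO3 (chr6:108559835-108684774, plus strand) was measured at 46.4, 47.2 and 45.4 CPM in WT and 49.0, 46.8 and 43.7 CPM in MLST8-KO replicates 1, 2 and 3. The groups overlapped, and the log2 fold change was 0.01 (95% interval -0.17 to 0.19, adjusted p = 0.964, edgeR), which bounds a change between a fall of 11.4% and a rise of 13.7%. FOXO4 (chrX:71096197-71103535, plus strand) was measured at 7.03, 8.68 and 9.16 CPM in WT and 9.42, 8.15 and 8.84 CPM in MLST8-KO replicates 1, 2 and 3. FOXO4 also overlapped in CPM, at a log2 fold change of 0.09 (95% interval -0.24 to 0.42, adjusted p = 0.676, edgeR). In TPM its groups narrowly did not overlap, at 3.95 to 5.02 in WT and 5.03 to 5.74 in MLST8-KO samples. FOXO6, the remaining family member, had 15 to 31 counts per sample and was at 0.24 (adjusted p = 0.558, edgeR). FOXO3 was 3.35, 4.54 and 6.61 times FOXO1 per length in WT and 2.95, 2.4 and 3.18 times FOXO1 in MLST8-KO replicates 1, 2 and 3. The ratio was lower in each MLST8-KO sample (-0.70 on the log2(TPM + 0.1) scale, two-sided exact permutation p = 0.1, the smallest possible).

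**Figure D3:**
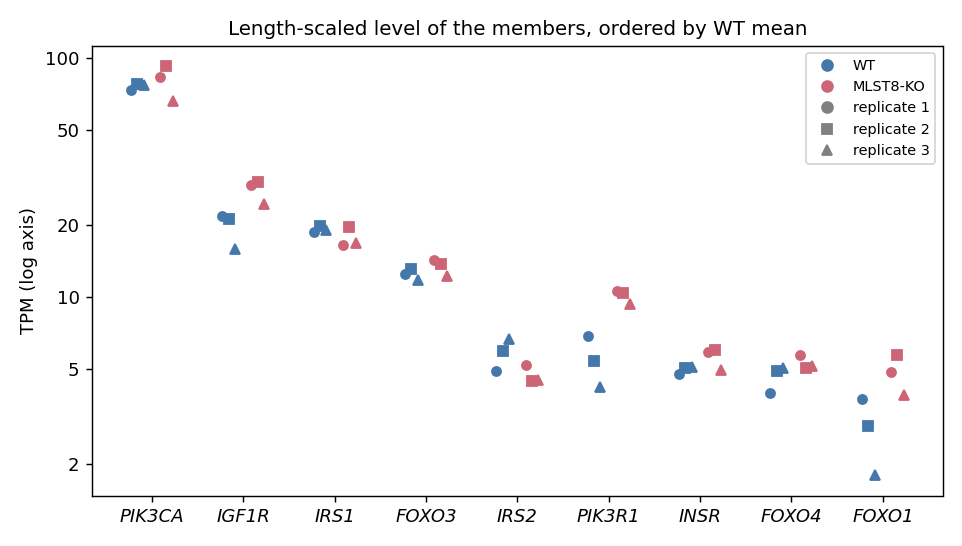
TPM of the 9 genes on a log axis, ordered by the WT mean, with blue symbols for the 3 WT samples, red symbols for the 3 MLST8-KO samples and shapes for replicate numbers. PIK3CA stands at 66.6 to 92.6 TPM in all samples, and PIK3R1 moves from among the low genes in WT to the middle in MLST8-KO cells.

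Per length, the members spanned a 27.4-fold range of mean level in WT cells. PIK3CA was highest at 76.5 ± 2.11 TPM (SD, n = 3), at the percentile 88.1 of all listed genes. IGF1R at 19.7 ± 3.32 and IRS1 at 19.2 ± 0.571 TPM followed with overlapping ranges, then FOXO3 at 12.5 ± 0.62 TPM. IRS2, PIK3R1, INSR and FOXO4 had means of 4.63 to 5.83 TPM, and neighbors in that order overlapped. FOXO1 was lowest at 2.80 ± 0.968 TPM, below FOXO4 in every sample. In MLST8-KO cells the range was 17.2-fold. IGF1R at 28.2 ± 3.22 TPM was clear of IRS1 at 17.7 ± 1.75 TPM, and PIK3R1 at 10.1 ± 0.677 TPM was clear of both FOXO3 above it and INSR below it. INSR, FOXO4, FOXO1 and IRS2 closed the order at 4.70 to 5.61 TPM, each overlapping with the next.

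**Figure D4:**
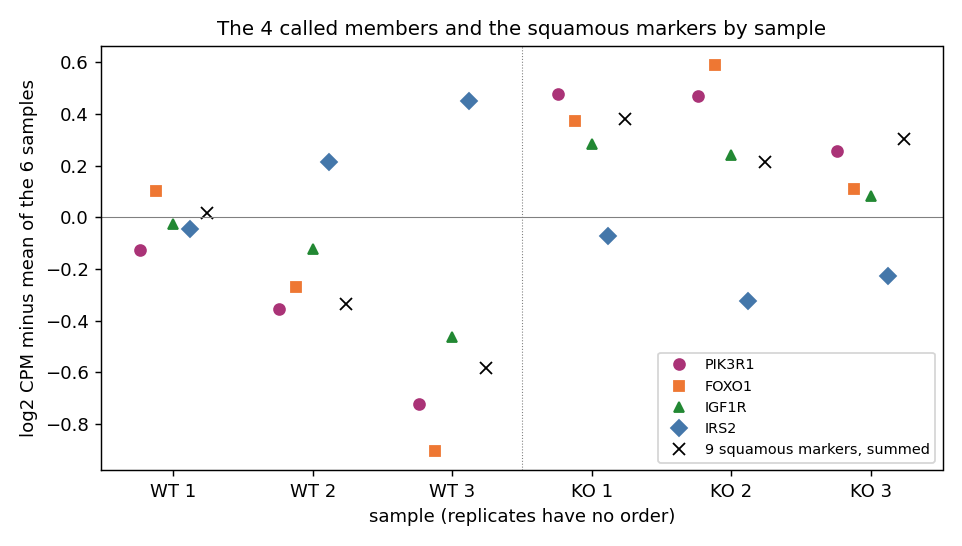
Log2 CPM of PIK3R1, FOXO1, IGF1R and IRS2 in each sample, minus the gene's mean over the 6 samples, with the summed CPM of the 9 squamous markers on the same scale as crosses. In WT replicate 1 all 5 values lie near 0, between the other WT samples and the MLST8-KO samples.

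The 3 raised members had the same order among WT samples: replicate 1 was highest and replicate 3 lowest for PIK3R1, FOXO1 and IGF1R, and IRS2 had the opposite order. The squamous markers moved with them, at 21454, 16797 and 14120 CPM in WT replicates 1, 2 and 3. Their part in these results was not tested. The genes whose centered log2 CPM over the 6 samples was closest to that of PIK3R1, among 11187 genes, were MEGF9, JAZF1, C21orf91, ANLN and CDC6, at Euclidean distances of 0.06 to 0.11. ANLN encodes a protein of the cleavage furrow and CDC6 a factor that loads the replicative helicase. FOXO1 stood at a distance of 0.37 (place 373), IGF1R at 0.50 (place 831) and IRS2 at 1.69 (place 10176).

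Further genes of the pathway were counted over 5 lists, beside the same background of 16.3% higher and 15.7% lower. The FOXO target list comprised genes known to respond to FOXO factors, among them genes of cell cycle arrest, stress defense, autophagy, cell death and metabolism. It mixes genes that FOXO factors raise with some that they lower, such as CCND1, which was not called. Of its 32 genes tested, 7 rose and 8 fell (21.9% and 25%), with a median of 0.04. These counts were 4 and 4 without MLST8-KO replicate 1 and 4 and 5 without MLST8-KO replicate 2 or WT replicate 2. CCNG2, an atypical cyclin of arrested cells, rose by 1.20 on the log2 scale (SE 0.23, adjusted p = 0.00561), from 5.56–10.5 to 13.7–21.1 CPM. SESN3, a sestrin that restrains mTORC1, rose by 1.11 (SE 0.23, adjusted p = 0.0081), from 44.7–107 to 158–177 CPM. CITED2, a transcriptional coregulator, rose by 0.95 and CDKN2B, the CDK inhibitor p15, by 0.78 (adjusted p = 0.00281 and 0.00494, edgeR). In the other direction, SOD2, the mitochondrial superoxide dismutase, fell by 1.15 on the log2 scale (SE 0.17, adjusted p = 0.003, edgeR), from 683–1219 to 420–450 CPM. TRIB1, a pseudokinase, fell by 1.02, MAP1LC3B, an autophagosome protein, by 0.81 and GADD45A, a stress-induced growth arrest gene, by 0.71 (adjusted p = 0.00397, 0.00524 and 0.0119, edgeR). GADD45A lost its call without MLST8-KO replicate 1 (-0.66, adjusted p = 0.0536), and the other 7 named targets kept theirs without any 1 sample.

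**Figure D5:**
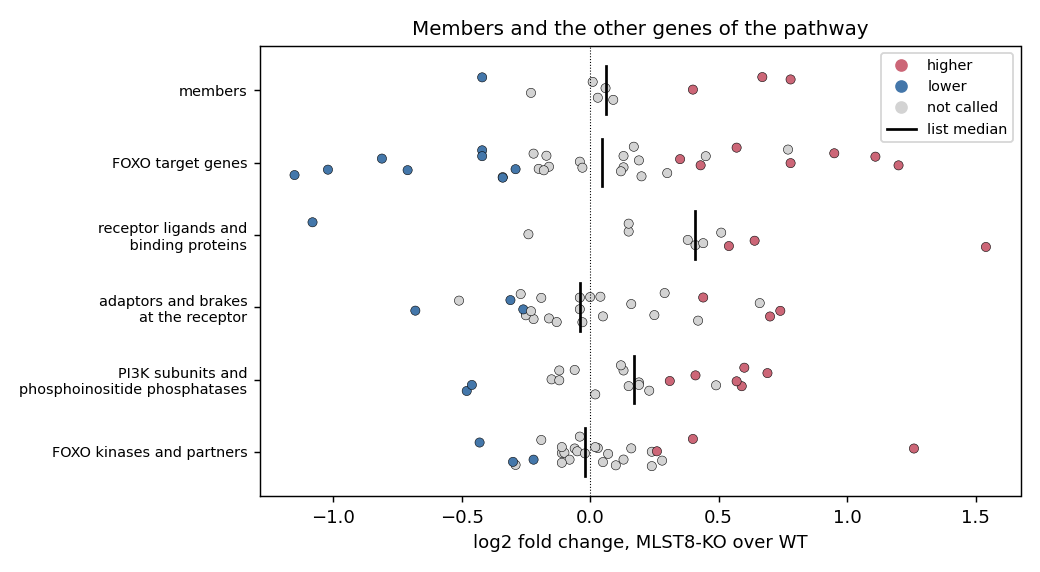
Log2 fold change of MLST8-KO over WT for the 9 members and for the tested genes of 5 lists, with each point a gene, red for called higher, blue for called lower and grey for not called. Black bars are list medians, which lie between -0.04 and 0.41; the points of the FOXO target list spread to both sides of 0.

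Of 11 genes tested on the list of receptor ligands and binding proteins, 3 rose (IGF2R, IGFBP5 and IGFBP7) and 1 fell, with a median of 0.41. IGF2R on this list is itself a receptor, and IGF2BP1, IGF2BP2 and IGF2BP3 bind mRNA and are not IGF-binding proteins. The number that rose was 1 without MLST8-KO replicate 1 or WT replicate 2, and 6 (with 2 that fell) without WT replicate 1. It was 5 with DESeq2 and 5 or 6 in the limma fits. IGFBP7 rose by 0.54 (SE 0.13, adjusted p = 0.0118, edgeR), a call lost without MLST8-KO replicate 1 (adjusted p = 0.0511) or WT replicate 2 (adjusted p = 0.0599). IGFBP6, which binds IGF-2 by preference, fell by 1.08 (SE 0.16, adjusted p = 0.00315, edgeR), from 78.1–109 to 33.6–51.5 CPM, and kept its call without any 1 sample. IGF1 itself did not pass the filter, and INS was not analysed here.

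Of 26 adaptors and brakes at the receptor tested, 3 rose and 4 fell, with a median of -0.04. The number that fell was 1 without MLST8-KO replicate 1, MLST8-KO replicate 2 or WT replicate 2 and in both limma fits, and 2 without WT replicate 3 or with upper quartile scaling. The number that rose was 1 without MLST8-KO replicate 2 or WT replicate 2, and 5 without WT replicate 1, in both limma fits and with upper quartile scaling. GAB1, a docking protein for PI3K, rose by 0.74 (adjusted p = 0.0115), the docking protein DOK1 by 0.70 (adjusted p = 0.0176) and the ubiquitin ligase CBLB by 0.44 (adjusted p = 0.018) with edgeR. SOCS1, which targets IRS proteins for degradation, fell by 0.68 (SE 0.15, adjusted p = 0.00903, edgeR), from 10.5–12.6 to 6.45–8.004 CPM. GRB2, SH2B1 and SHC1, adaptors at receptor tyrosine kinases, fell by 0.31, 0.26 and 0.25 (adjusted p = 0.022, 0.0427 and 0.0315, edgeR). SOCS1 alone among these 7 kept its call without any 1 sample. GAB1 lost its call without MLST8-KO replicate 2 (adjusted p = 0.054), and CBLB without MLST8-KO replicate 2 or WT replicate 2 (adjusted p = 0.0755 and 0.0835). DOK1 and GRB2 lost theirs in 3 of 6 such fits (adjusted p = 0.0531 to 0.0801), SHC1 in 4 (adjusted p = 0.0514 to 0.141) and SH2B1 in 5 (adjusted p = 0.0502 to 0.17). The fall of SH2B1 also missed the threshold with DESeq2 (adjusted p = 0.0702).

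Of 20 genes tested on the list of other PI3K subunits and phosphoinositide phosphatases, 6 rose and 2 fell, with a median of 0.17, PIK3R2, PIK3R3 and PIK3CD among them. PHLPP1 and PHLPP2 on this list are protein phosphatases, and PIK3AP1 and PIK3IP1 are not subunits. The counts were 2 and 0 without any 1 MLST8-KO sample or WT replicate 2, and 3 and 0 without WT replicate 3. The number that fell was also 1 with DESeq2 or upper quartile scaling and 0 in both limma fits. PHLPP1, a phosphatase that removes phosphate from AKT, rose by 0.57 (SE 0.13, adjusted p = 0.0113, edgeR), with 87 to 97 counts in WT and 150 to 153 in MLST8-KO samples, and kept its call without any 1 sample. PIK3C2B, a class II PI3K, rose by 0.59 and SYNJ1, the phosphoinositide phosphatase synaptojanin, fell by 0.46 (adjusted p = 0.0367 and 0.0475, edgeR). Both calls were kept only without WT replicate 1 (otherwise 0.39 to 0.64 with adjusted p = 0.0521 to 0.122 for PIK3C2B, and -0.55 to -0.34 with adjusted p = 0.0651 to 0.137 for SYNJ1). DESeq2 did not call SYNJ1 (adjusted p = 0.0534).

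Of 27 FOXO kinases and partners tested, 3 rose and 3 fell, with a median of -0.02. The counts were 1 and 1 without MLST8-KO replicate 1 or MLST8-KO replicate 2, and 5 and 1 in both limma fits. SGK3, a kinase related to AKT that also phosphorylates FOXO, rose by 1.26 on the log2 scale (SE 0.28, adjusted p = 0.0101, edgeR), with 28 to 63 counts in WT and 84 to 136 in MLST8-KO samples. YWHAG, a 14-3-3 protein of the kind that holds phosphorylated FOXO in the cytoplasm, fell by 0.43 (SE 0.07, adjusted p = 0.0038, edgeR), from 972–1033 to 734–759 CPM. Both kept their calls without any 1 sample. XPO1, the nuclear exporter, rose by 0.40 and AKT1 by 0.26, while the kinases DYRK1A and CSNK1A1 fell by 0.30 and 0.22 (adjusted p = 0.0138, 0.0222, 0.0228 and 0.042, edgeR). XPO1 lost its call without MLST8-KO replicate 1 or 2 (adjusted p = 0.058 and 0.0575), AKT1 and DYRK1A lost theirs in 4 of 6 such fits (adjusted p = 0.0516 to 0.11) and CSNK1A1 in 5 (adjusted p = 0.0599 to 0.152). In limma on log2(TPM + 1), the falls of PIK3CD, GRB2, SH2B1, SHC1, SYNJ1, DYRK1A and CSNK1A1 also missed the threshold (adjusted p = 0.0845 to 0.326).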

How the data were processed

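RNA was sequenced on the DNBSEQ platform from 6 HCC2814 samples. Per the paper's methods and the submitters' processing notes, the authors removed reads with adapters, unknown bases or low quality, aligned the rest to GRCh38.p12 with HISAT and to reference genes with BowTie2; the counter and versions are not given in the sources used here. The authors deposited estimated counts per gene (12.4% not whole numbers, rounded here before testing), TPM and FPKM; the deposited FPKM values were not tested. A further deposited table with the p-values, q-values and log2 fold changes of the authors' own DESeq2 and pairwise comparisons was not used. For 25 genes whose symbols had become dates, the symbol was restored by Entrez identifier.

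Groups came from the sample titles. The quasi-likelihood test of edgeR 4.0.16 (R 4.3.3) was run after filterByExpr and TMM scaling with no replicate block, with Benjamini-Hochberg adjustment over 12951 genes. Standard errors were the log2 fold change over the square root of F. TPM ratios and sums used the deposited TPM with a pseudocount of 0.1 on the log2 scale. As alternatives, the test was exchanged for DESeq2 1.42.0 or for limma 3.58.1 on log2(TPM + 1) or log2(TPM + 0.1). TMM was exchanged for upper quartile scaling or DESeq2's size factors, the filter was dropped or set to 10 counts per sample, the replicate number was added as a block, and each sample was left out in turn. Replicates of a group differed by more than sampling noise. On simulated counts for this comparison (12951 genes, 200 changed by a log2 fold change of 1), 89.5% of changed genes were called and 6.28% of calls were false. In that simulation genes varied independently, and the changed genes moved more than any called member. Far fewer genes were changed than the 4146 called in the data, so these rates do not carry over to the calls of the members.

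The 9 members and the lists were chosen with earlier results of these data known. Named genes were MLST8, the members, their family genes, the 5 genes most like the member with the smallest p, and from each list up to 4 per direction with the largest change among those called whose groups do not overlap and whose mean count reached 50. Gene coordinates are from GENCODE 29 (GRCh38) and promoters from RefSeq (GRCh38.p14). Planned features of the proteins were not analysed here, and 1 item is not reported here.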

Additional observations from a re-analysis of the deposited data

How the results depend on the processing

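PIK3R1 and MLST8 kept their direction and their call under every alternative run, and FOXO1 and IGF1R under the 8 that kept all samples. With 1 sample left out, the log2 fold change ranged from 0.44 to 0.92 for FOXO1, 0.28 to 0.49 for IGF1R, -0.54 to -0.29 for IRS2, -0.29 to -0.17 for IRS1, -0.03 to 0.05 for FOXO3, -0.02 to 0.16 for FOXO4 and -0.05 to 0.13 for PIK3CA. Of these, FOXO3 turned to -0.03 without MLST8-KO replicate 1 and -0.01 without WT replicate 3, FOXO4 to -0.02 without WT replicate 1 and PIK3CA to -0.05 without MLST8-KO replicate 2. Members called numbered 1 to 3 higher and 0 to 2 lower, and all genes called 971 to 2692 higher and 850 to 2651 lower, in these fits, which have fewer samples. IRS2 lost its call with upper quartile scaling (-0.36), limma on log2(TPM + 1) (-0.25) and limma on log2(TPM + 0.1) (-0.30), leaving 0 members lower under each. Genes called lower numbered 1134 and 1132 in the 2 limma fits, and the cause was not tested. Same-numbered samples deviated together at r = 0.10, 0.05 and 0.14 over genes, and each sample correlated best with its own number. Whether the numbers mark pairs is not given in the sources, and these small values cannot settle it. The main fit used no block. With a replicate block, 2261 genes were higher and 2157 lower, 2 members were lower, and IRS1 at -0.23 was called (adjusted p = 0.0494). The block changed no other member's call, and of the other named genes SYNJ1 (-0.47, adjusted p = 0.0613) and CSNK1A1 (-0.22, adjusted p = 0.0517) lost theirs. Among other results, 557 alternatives kept their side of the threshold or their size, 79 lost a call and 50 moved in size. With 3 samples per group no permutation p can fall below 0.1.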

Other observations

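Each member's level was set beside those of the protein-coding genes within 1 Mb of it, as a description. The 11 such genes listed around PIK3CA had a median level of 66.5 TPM in WT cells, at a median percentile of 86.5, close to the percentile of 88.1 for PIK3CA itself. Around PIK3R1 the median percentile of 6 genes was 81, against 46.2 for PIK3R1. Around IRS1 the 7 listed genes had a median percentile of 20.1, against 65.6 for IRS1. Among the tested neighbors of FOXO1, 1 of 11 was called higher and 1 lower, and of the 6 around PIK3R1 also 1 in each direction.

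NKX2-1, a lineage factor of lung adenocarcinoma and the marker of that list that reached 10 counts, had 59, 40 and 24 counts in WT replicates 1 to 3 against 166, 163 and 138 in the MLST8-KO samples. In MLST8-KO replicate 1, AFP had 849 counts and FGA 1083, against at most 26 and 30 in the other samples, while ALB had 53.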
